A study of Mus musculus with 6 samples.

Results

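The 4 chains of the interferon receptors, the kinases Jak1 and Tyk2, the transcription factor genes Stat2 and Irf9, and Irf1 were examined in sorted cells. The labels name these cells LT-HSCs (long-term haematopoietic stem cells, which maintain blood formation from the bone marrow). The 9 genes were taken by gene name from a table of 26776 mouse genes. All 9 were found, and all 9 were among the 18081 genes that passed the filter on low counts. The cells came from Trim47+/eGFP mice, in which, going by the genotype name, 1 allele of the ubiquitin ligase gene Trim47 carries eGFP, a green fluorescent reporter. RNA of the sorted populations with high reporter fluorescence (eGFPhi, 3 libraries) and with low reporter fluorescence (eGFPlo, 3 libraries) was sequenced. Both groups share the reporter allele, and mice without it were not analysed here. The sources used here give neither the age and number of mice nor the gate for LT-HSCs. They also do not say whether replicates came from separate animals or sorts, so p-values cover the spread among these 6 libraries and nothing wider.

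Type I interferons (the alpha and beta interferons) bind a receptor made of Ifnar1 and Ifnar2, and interferon gamma binds a receptor made of Ifngr1 and Ifngr2. The kinases Tyk2 and Jak1 lie on the type I chains, and Jak1 and Jak2 on the gamma chains. After ligand binding they phosphorylate STAT proteins: Stat2 and Irf9 are subunits of the complex ISGF3, which binds interferon-stimulated response elements (ISREs), and STAT dimers bind gamma-activated sites (GAS). Irf1 is itself induced through a GAS and then activates genes of antigen presentation and antiviral defence. In mouse bone marrow, interferons are known to drive quiescent stem cells into division, and Irf2, which competes with Irf1 for DNA, is known to restrain that response.

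In eGFPhi cells the receptor genes were lower and most of the genes that act after the receptor were higher. All 4 receptor chains fell, by 1.22-fold to 1.56-fold. Jak1, Stat2, Irf9 and Irf1 rose, by 1.24-fold to 1.46-fold, and Tyk2 did not pass the test. In counts, 4 of 9 genes rose and 4 of 9 fell at an adjusted p under 0.05 (edgeR quasi-likelihood test, Benjamini-Hochberg adjustment over all genes tested), against 32.3% of all tested genes that rose, 31.7% that fell and 64.0% that did either. The median log2 fold change of the 9 genes was -0.13, and of all tested genes 0.00. For each of the 9 genes the libraries of the groups did not overlap, as for 69.8% of all tested genes. Changes were of ordinary size: the median absolute log2 fold change was 0.42 for the 9 genes and 0.44 for all tested genes, no member changed 2-fold, and 36.4% of tested genes changed by more than Ifnar2, the member with the largest change. The spread between replicate libraries was small (common biological coefficient of variation 0.0941). With a coefficient of 0.2 assumed in a likelihood ratio test, 36.6% of genes were called, and of the 9 only Ifnar2 (adjusted p = 0.0220).

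The sort labels and the cell type were checked first. Trim47 had 21.6, 26.2 and 23.3 CPM (counts scaled to library size with TMM factors) in eGFPhi libraries, against 7.28, 8.18 and 8.92 CPM in eGFPlo libraries (log2 fold change 1.54, SE 0.11, edgeR adjusted p = 1.69e-05). Libraries held 11221070 to 26058391 counts, and the 9 genes had 193 to 12075 counts in a library, so none lay near the detection floor. The name LT-HSCs for both groups is that of the labels. In eGFPlo, the myeloid gene Mpo had 3885 CPM and the B cell gene Ighm 3026 CPM, each above the summed LT-HSC markers. These values go against the name for eGFPlo as a whole. Of 10 LT-HSC markers 9 were higher in eGFPhi, with summed levels of 2006 to 2214 CPM in eGFPhi and 947 to 986 CPM in eGFPlo. Kit was the largest part of the eGFPlo sum, at a mean of 539 CPM (783 CPM in eGFPhi), followed by Hlf at 192 CPM (483 CPM in eGFPhi). Mecom had 317 CPM in eGFPhi and 83.5 CPM in eGFPlo, Mllt3 258 and 75.9 CPM, Fgd5 148 and 30.4 CPM, and Ctnnal1 50.6 and 13.5 CPM. Slamf1 had 35.2 CPM in eGFPhi and 4.75 CPM in eGFPlo, Procr 42.8 and 12.7 CPM, and Hoxb5, low in both groups, 4.29 and 0.440 CPM. Ly6a, the marker that did not pass, had 18.6 CPM in eGFPhi and 13.3 CPM in eGFPlo (edgeR adjusted p = 0.0623). Markers of most other cells were lower in eGFPhi: all 8 granulocyte-monocyte progenitor markers fell (334 to 344 CPM in eGFPhi, 5349 to 5456 CPM in eGFPlo), as did all 10 B cell markers (404 to 416 CPM in eGFPhi, 3485 to 3570 CPM in eGFPlo), with Igll1 at 0 in every eGFPhi library. All 6 tested T and NK cell markers fell (19.49 to 20.98 CPM in eGFPhi, 78.91 to 82.06 CPM in eGFPlo), with Trbc2, Cd3e, Cd3g and Cd3d at 0 in every eGFPhi library. Of 7 tested monocyte, macrophage and dendritic cell markers 6 fell (20.8 to 22.4 CPM in eGFPhi, 85.9 to 87.2 CPM in eGFPlo). Of 8 erythroid markers 7 fell (42.5 to 49.7 CPM in eGFPhi, 101 to 119 CPM in eGFPlo), and of 8 megakaryocyte and platelet markers 7 rose (853 to 860 CPM in eGFPhi, 205 to 217 CPM in eGFPlo). Fewer cells of a type and less RNA per cell cannot be told apart in such libraries, and the part of these other cells in the results below was not tested.

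Promoter sequence of all 9 genes was searched for both elements, the ISRE and the GAS, as a description of sequence. RefSeq windows from 250 bases before to 50 bases after the start (GRCm38.p6) were available for all 9 genes, 11 windows in all. The ISRE core was searched as GAAANNGAA and the GAS as TTCNNNGAA, on both strands, and no matches overlapped. The Stat2 window (chr10:128270248-128270547, plus strand) held 1 ISRE core on the opposite strand, beginning 221 bases before the start. The first of 2 Irf1 windows (chr11:53769764-53770063, plus strand) held 1 GAS, 90 bases before the start. Both are shown 5′ to 3′ with the match in capitals.
Stat2: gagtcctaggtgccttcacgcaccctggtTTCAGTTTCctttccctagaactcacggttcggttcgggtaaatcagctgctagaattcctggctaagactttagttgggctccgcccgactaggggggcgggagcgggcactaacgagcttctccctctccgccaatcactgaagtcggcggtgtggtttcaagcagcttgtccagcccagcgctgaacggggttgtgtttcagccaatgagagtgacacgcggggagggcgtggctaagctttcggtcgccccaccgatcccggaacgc
Irf1: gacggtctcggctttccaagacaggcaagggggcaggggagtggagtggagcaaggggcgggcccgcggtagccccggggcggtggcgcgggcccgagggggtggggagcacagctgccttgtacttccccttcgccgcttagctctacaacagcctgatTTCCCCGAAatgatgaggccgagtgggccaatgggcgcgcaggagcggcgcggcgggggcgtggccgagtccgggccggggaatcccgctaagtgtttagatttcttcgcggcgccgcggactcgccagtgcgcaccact

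Among the receptor genes, which fell, both type I chains held a GAS match, given in capitals with 10 bases on each side. The Ifnar1 match (window chr16:91484965-91485264, plus strand) spans the start, beginning 5 bases before it, and the Ifnar2 match (window chr16:91372533-91372832, plus strand) begins 214 bases before the start. The windows of Ifngr1, Ifngr2, Jak1, Tyk2 and Irf9 held neither run of letters. Over the table, 8.56% of 32851 promoter windows held the ISRE core and 8.30% the GAS, against 1 and 3 of the 11 member windows. A match describes the letters of the window and is not evidence of binding.
Ifnar1: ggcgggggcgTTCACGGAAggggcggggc
Ifnar2: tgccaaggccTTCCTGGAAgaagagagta

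Both chains of the type I receptor were lower in eGFPhi. Ifnar1 (ENSMUSG00000022967, chromosome 16, 91485238 to 91507441, plus strand, GRCm38), the chain that carries Tyk2, had 51.6, 54.5 and 54.8 CPM in eGFPhi libraries, against 63.1, 70.9 and 62.9 CPM in eGFPlo libraries. Every eGFPhi library lay below every eGFPlo library, with the highest eGFPlo value in replicate 2. It was 1.22-fold lower (log2 fold change -0.29, SE 0.06, edgeR adjusted p = 0.00333), the smallest among the 4 chains. Ifnar2 (ENSMUSG00000022971, chromosome 16, 91372783 to 91405589, plus strand), the chain that carries Jak1, had 39.9, 43.6 and 37.3 CPM in eGFPhi libraries, against 65.0, 61.0 and 63.3 CPM in eGFPlo libraries. The groups were well apart, and the gene was 1.56-fold lower (log2 fold change -0.65, SE 0.06, edgeR adjusted p = 9.07e-05). Per length, Ifnar2 was 1.34 ± 0.110 times as abundant as Ifnar1 in eGFPhi and 1.72 ± 0.163 times in eGFPlo (ratio of TPM over merged exons, SD, n = 3). The ratio was 1.378, 1.426 and 1.217 in eGFPhi libraries, below the 1.838, 1.536 and 1.795 of eGFPlo libraries.

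Both chains of the interferon gamma receptor were lower as well. Ifngr1 (ENSMUSG00000020009, chromosome 10, 19591949 to 19610229, plus strand), the ligand-binding chain, had 49.8, 52.6 and 54.0 CPM in eGFPhi libraries, against 69.9, 74.2 and 78.1 CPM in eGFPlo libraries. The groups did not overlap, and Ifngr1 was 1.42-fold lower (log2 fold change -0.51, SE 0.05, edgeR adjusted p = 1.36e-04). Ifngr2 (ENSMUSG00000022965, chromosome 16, 91547072 to 91565623, plus strand), the chain that carries Jak2, had 17.2, 15.7 and 14.1 CPM in eGFPhi libraries, against 23.0, 23.7 and 23.3 CPM in eGFPlo libraries. All 3 eGFPhi libraries lay below all 3 eGFPlo libraries. The gene was 1.499-fold lower (log2 fold change -0.58, SE 0.09, edgeR adjusted p = 6.83e-04), with a wider spread in eGFPhi, of 1.55 CPM, than in eGFPlo, of 0.326 CPM (SD). Per length, Ifngr1 was 4.45 ± 0.618 times as abundant as Ifngr2 in eGFPhi and 4.198 ± 0.215 times in eGFPlo (SD, n = 3), and these ratios overlapped between groups. B cell, myeloid progenitor and monocyte markers fell in the same libraries as the receptor chains, by the sums given above.

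**Figure D1:**
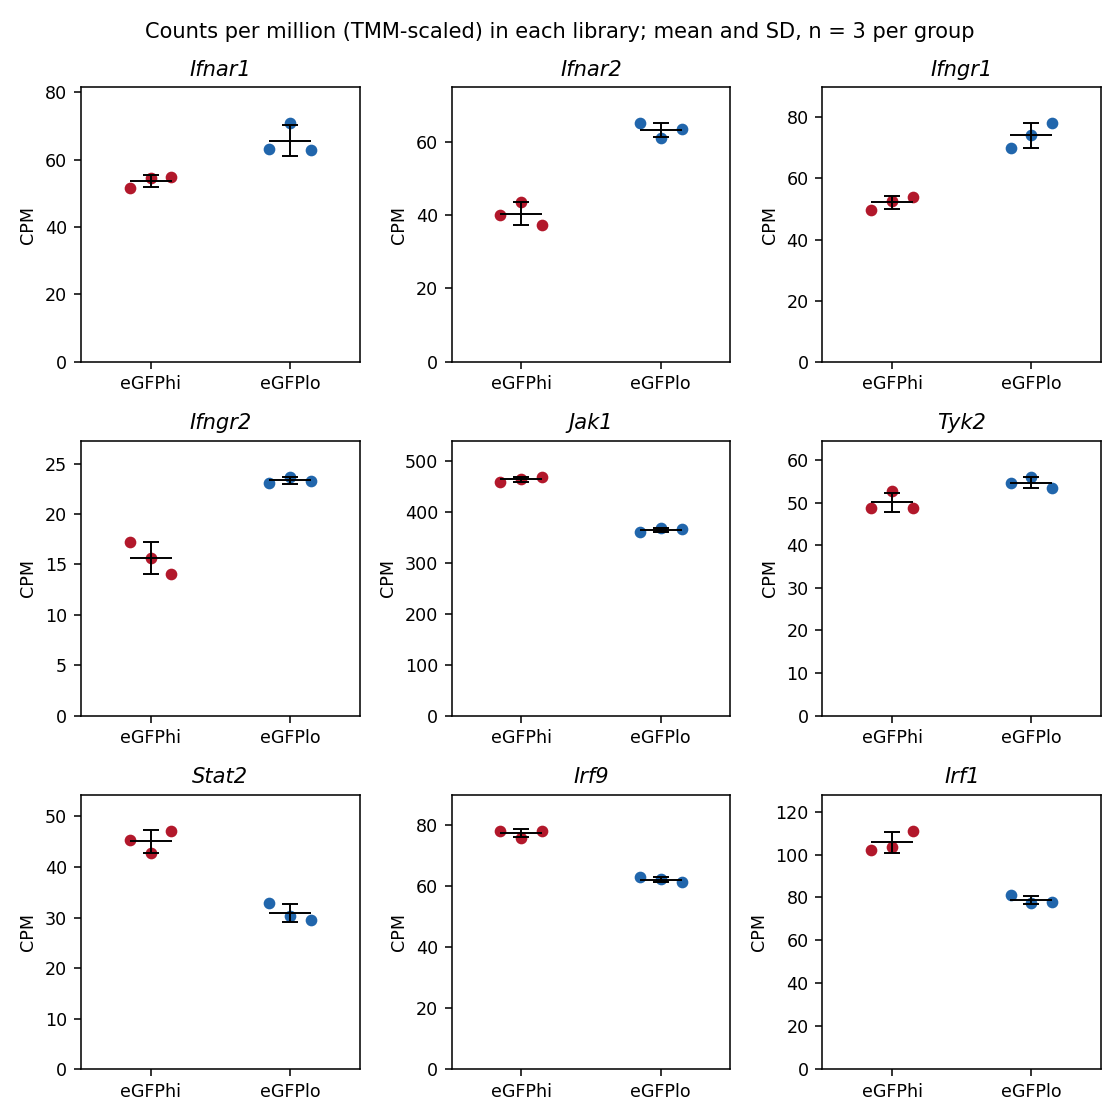
CPM (TMM-scaled) of each of the 9 genes in each library, eGFPhi in red on the left and eGFPlo in blue on the right; the black line and bar are mean and SD, n = 3 per group, and each axis starts at 0. The 4 receptor chains lie lower in eGFPhi (Ifnar2 at 37.3 to 43.6 CPM in eGFPhi, 61.0 to 65.0 CPM in eGFPlo), and Jak1, Stat2, Irf9 and Irf1 lie higher.

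Of the receptor kinases Jak1 rose and Tyk2 did not pass the threshold. Jak1 (ENSMUSG00000028530, chromosome 4, 101152367 to 101265282, minus strand), used by both receptors and by many cytokine receptors, had 457, 464 and 468 CPM in eGFPhi libraries, against 360, 368 and 366 CPM in eGFPlo libraries. All eGFPhi values lay above all eGFPlo values, and it was 1.27-fold higher (log2 fold change 0.35, SE 0.02, edgeR adjusted p = 5.85e-06). Tyk2 (ENSMUSG00000032175, chromosome 9, 21104068 to 21131243, minus strand) had 48.9, 52.7 and 48.9 CPM in eGFPhi libraries, against 54.7, 56.1 and 53.5 CPM in eGFPlo libraries. Although the libraries did not overlap, its log2 fold change of -0.13 (SE 0.05) had an edgeR adjusted p of 0.0535, and of 0.0301 without eGFPhi replicate 2, its highest eGFPhi library. Per length, Jak1 was 8.79 ± 0.381 times as abundant as Tyk2 in eGFPhi and 6.33 ± 0.155 times in eGFPlo (SD, n = 3).

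The ISGF3 subunit genes Stat2 and Irf9 rose. Stat2 (ENSMUSG00000040033, chromosome 10, 128270559 to 128292849, plus strand), the STAT protein particular to type I and type III interferon signalling, had 45.4, 42.7 and 47.2 CPM in eGFPhi libraries, against 32.8, 30.4 and 29.5 CPM in eGFPlo libraries. The lowest eGFPhi library lay above the highest eGFPlo library. This was the largest rise among the 9 genes, 1.46-fold (log2 fold change 0.55, SE 0.06, edgeR adjusted p = 2.01e-04). Irf9 (ENSMUSG00000002325, chromosome 14, 55603571 to 55610030, plus strand), the DNA-binding subunit, had 78.0, 76.0 and 78.2 CPM in eGFPhi libraries, against 62.9, 62.4 and 61.2 CPM in eGFPlo libraries. Its replicates lay within a narrow band in each group, with no overlap, and it was 1.24-fold higher (log2 fold change 0.32, SE 0.04, edgeR adjusted p = 1.77e-04). The ratio of Irf9 to Stat2 per length was 1.89 ± 0.0673 in eGFPhi and 2.22 ± 0.0960 in eGFPlo (SD, n = 3).

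Irf1 (ENSMUSG00000018899, chromosome 11, 53770014 to 53778374, plus strand), the interferon gamma target whose promoter GAS is printed above, had 102, 104 and 111 CPM in eGFPhi libraries, against 81.1, 77.4 and 77.8 CPM in eGFPlo libraries. All eGFPhi values lay above all eGFPlo values, and it was 1.34-fold higher (log2 fold change 0.42, SE 0.04, edgeR adjusted p = 1.07e-04). Summed LT-HSC and megakaryocyte markers were higher in the same libraries as Jak1, Stat2, Irf9 and Irf1, and the part of those cells was not tested. Of the 9 genes 5 share exon bases with another gene in GENCODE M21, and the strand setting of the counting is not given in the sources used here. Irf1 shares 135 bases with the opposite-strand gene Gm17334, which stood at 1.91 CPM in eGFPhi and 3.25 CPM in eGFPlo, far below it. Irf9 shares 123 bases with Rnf31 on the same strand, which stood at 25.9 CPM in eGFPhi and 27.8 CPM in eGFPlo and did not pass (edgeR adjusted p = 0.458). Ifnar2 shares bases with Gm21970 (given with its neighbours on chromosome 16). On the opposite strand, Jak1 shares 4 bases with Raver2, and Tyk2 shares 554 with 1700084C06Rik, which had no count in any eGFPhi library and 4, 7 and 18 counts in eGFPlo libraries.

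Levels between genes were compared per length within a group, as TPM (counts per base of merged annotated exon, scaled to a common sum per library). In eGFPhi, Jak1 was the most abundant at 99.8 ± 0.590 TPM (SD, n = 3), followed by Irf1 at 41.4 ± 1.63 and Ifngr1 at 28.5 ± 0.985 TPM. Irf9 at 22.4 ± 0.348, Ifnar2 at 18.8 ± 1.54 and Ifnar1 at 14.1 ± 0.388 TPM came next. Stat2 at 11.9 ± 0.557 TPM and Tyk2 at 11.4 ± 0.520 TPM overlapped, and Ifngr2 was lowest at 6.47 ± 0.683 TPM. In eGFPlo the order differed: Jak1 at 84.5 ± 0.326 TPM was followed by Ifngr1 at 43.6 ± 2.16, Irf1 at 33.2 ± 1.12 and Ifnar2 at 31.7 ± 1.23 TPM. Irf9 at 19.3 ± 0.377, Ifnar1 at 18.5 ± 1.20, Tyk2 at 13.4 ± 0.322, Ifngr2 at 10.4 ± 0.0845 and Stat2 at 8.73 ± 0.554 TPM made up the rest. There the neighbours Irf1 and Ifnar2 overlapped, as did Irf9 and Ifnar1. In eGFPhi Irf1 stood above Ifngr1 and Irf9 above Ifnar2, and in eGFPlo each of these pairs stood the other way round, without overlap in either group. Stat2 stood above Ifngr2 in eGFPhi and below it in eGFPlo, where the order of these genes turned with the deposited FPKM in place of TPM.

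**Figure D2:**
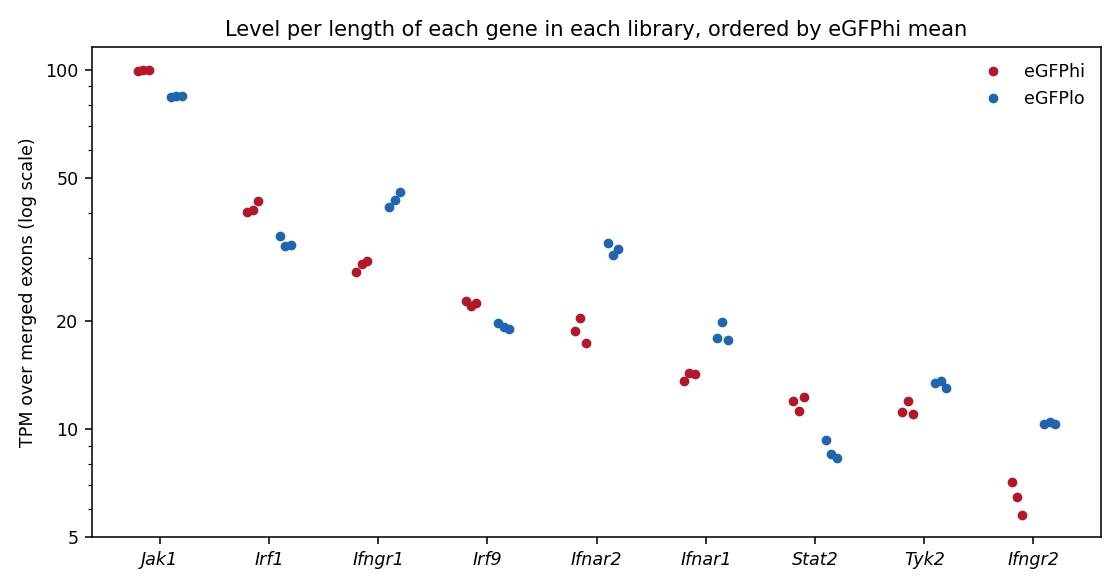
TPM over merged exons of the 9 genes (log axis), each point a library, eGFPhi in red to the left of eGFPlo in blue, genes ordered by their eGFPhi mean. Jak1 lies above all others at 99.1 to 100.2 TPM in eGFPhi and 84.1 to 84.8 TPM in eGFPlo, and Stat2 lies above Ifngr2 in eGFPhi but below it in eGFPlo.

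Ifnar2, Ifnar1 and Ifngr2 lie within 192.8 kb of chromosome 16, with Il10rb, a chain of the interleukin-10 and type III interferon receptors, between the type I genes. This neighbourhood, looked at after the members' values were seen, held 15 tested genes within 250 kb on either side. The first of these along the chromosome was Ifnar2, so the 250 kb before it held no tested gene. Besides the 3 members, 12 neighbours were tested, of which 3 rose and 5 fell, where 32.3% of all tested genes rose and 31.7% fell. Among those that fell, Gm21970 and A930006K02Rik (0.235 CPM in eGFPhi, 2.33 CPM in eGFPlo) passed the filter on low counts only through eGFPlo. Their direction was thus fixed by the filter. Il10rb had 26.7, 27.8 and 26.9 CPM in eGFPhi libraries, against 18.1, 17.3 and 29.6 CPM in eGFPlo libraries, which overlap because eGFPlo replicate 3 lies above the rest (log2 fold change 0.31, SE 0.19, edgeR adjusted p = 0.190). Without that library it passed the threshold (log2 fold change 0.62, edgeR adjusted p = 6e-04). The annotated gene Gm21970 begins within Ifnar2, ends within Il10rb and shares 315 exon bases with Ifnar2 and 569 with Il10rb, all on the same strand. It had no count in eGFPhi and 13, 9 and 24 counts in eGFPlo libraries, at least 19.8-fold lower in eGFPhi against a floor of 3 counts over the group. Next to Ifngr2, Tmem50b (log2 fold change -0.47, SE 0.11, edgeR adjusted p = 0.00623) and the purine synthesis gene Gart (-0.51, SE 0.03, edgeR adjusted p = 1.01e-05) also fell. The chaperone-family gene Dnajc28 (0.44, SE 0.11, edgeR adjusted p = 0.00963) and the endocytic scaffold gene Itsn1 (2.14, SE 0.03, edgeR adjusted p = 7.18e-09) rose, so the genes of this stretch did not move one way.

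**Figure D3:**
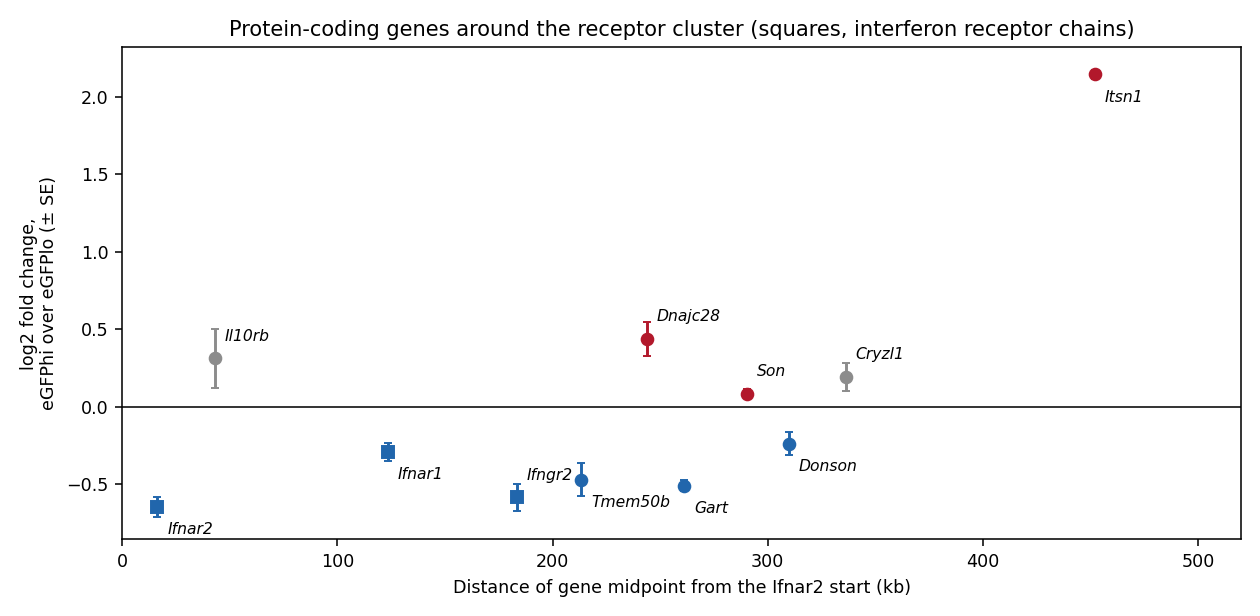
Log2 fold change, eGFPhi over eGFPlo, with SE (edgeR, n = 3 per group) of the tested protein-coding genes with counts in both groups, against the distance of the gene midpoint from the Ifnar2 start in kb; squares are interferon receptor chains, red is higher, blue lower and grey not past the threshold. The 3 receptor chains lie below 0 among neighbours on both sides of 0, from Gart at -0.51 to Itsn1 at 2.14.

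Of 7 other JAK and STAT genes listed and tested, 6 rose and 0 fell in eGFPhi, where 32.3% of all tested genes rose and 64.0% changed in either direction. Their median log2 fold change was 0.24, and that of all tested genes 0.00. Jak2, the partner of Ifngr2 and of the thrombopoietin receptor, rose 1.30-fold to 149 ± 3.50 CPM in eGFPhi, against 115 ± 4.44 CPM in eGFPlo (edgeR adjusted p = 9.24e-05). Jak3, which serves receptors with the common gamma chain, rose 1.18-fold. Stat3, activated by the interleukin-6 family, rose 1.23-fold to 212 ± 1.84 CPM in eGFPhi, against 172 ± 7.32 CPM in eGFPlo (edgeR adjusted p = 2.05e-04). Stat4 rose 1.30-fold, Stat5a 1.13-fold and Stat6 1.14-fold. Stat5b had 128, 138 and 134 CPM in eGFPhi libraries, against 143, 151 and 92.0 CPM in eGFPlo libraries, the last set apart by replicate 3 (log2 fold change 0.06, SE 0.16, edgeR adjusted p = 0.761). Without that library its direction turned (log2 fold change -0.14, edgeR adjusted p = 0.0430). With the assumed coefficient of 0.2, 0 of these 7 genes passed in edgeR's likelihood ratio test (lowest adjusted p = 0.216), and 0 had an unadjusted p under 0.05, where 6 passed with DESeq2. Stat4 shares 1033 exon bases with the transcript gene Gm28177 on the same strand, and Stat3 and Stat5a share 72 bases on opposite strands. Jak3 shares 404 with Insl3 and Stat6 40 with Nab2.

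The other IRF genes and IRF2-binding protein genes went both ways. Of 9 tested, 3 rose and 6 fell (median log2 fold change -0.38), where 32.3% of all tested genes rose, 31.7% fell and 64.0% did either. Irf2, the repressor that competes with Irf1, rose 1.70-fold to 144 ± 2.54 CPM in eGFPhi, against 84.4 ± 0.831 CPM in eGFPlo (log2 fold change 0.77, SE 0.03, edgeR adjusted p = 8.37e-07). Irf2bp2, a corepressor that binds Irf2, was 155 ± 1.08 CPM in eGFPhi and 260 ± 4.66 CPM in eGFPlo (log2 fold change -0.74, SE 0.03, edgeR adjusted p = 4.14e-07), and its relative Irf2bpl rose (0.82, SE 0.05, edgeR adjusted p = 1.01e-05). Irf4, a lymphocyte and plasma cell factor, fell to 8.37 ± 2.16 CPM in eGFPhi, against 43.4 ± 3.39 CPM in eGFPlo (log2 fold change -2.38, SE 0.18, edgeR adjusted p = 1.94e-05). Irf8, a factor of monocyte, dendritic and B cell development, had 9.52, 8.45 and 9.25 CPM in eGFPhi libraries, against 39.7, 39.0 and 61.1 CPM in eGFPlo libraries (log2 fold change -2.38, SE 0.19, edgeR adjusted p = 2.96e-05). Both fell in the libraries in which B cell and myeloid markers fell, and the part of those cells was not tested. Irf3, the kinase-activated factor of RNA and DNA sensing, fell (log2 fold change -0.30), Irf5 fell (-0.88) and Irf7, which amplifies type I interferon production, rose (0.49, edgeR adjusted p = 0.0141). With the assumed coefficient of 0.2, 6 of the 9 passed, where 36.6% of all tested genes did. Exon bases are shared by Irf2bp2 with Gm26759 (1039), Irf5 with Tnpo3 (411), Irf3 with Bcl2l12 (88) and Irf7 with Phrf1 (45).

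**Figure D4:**
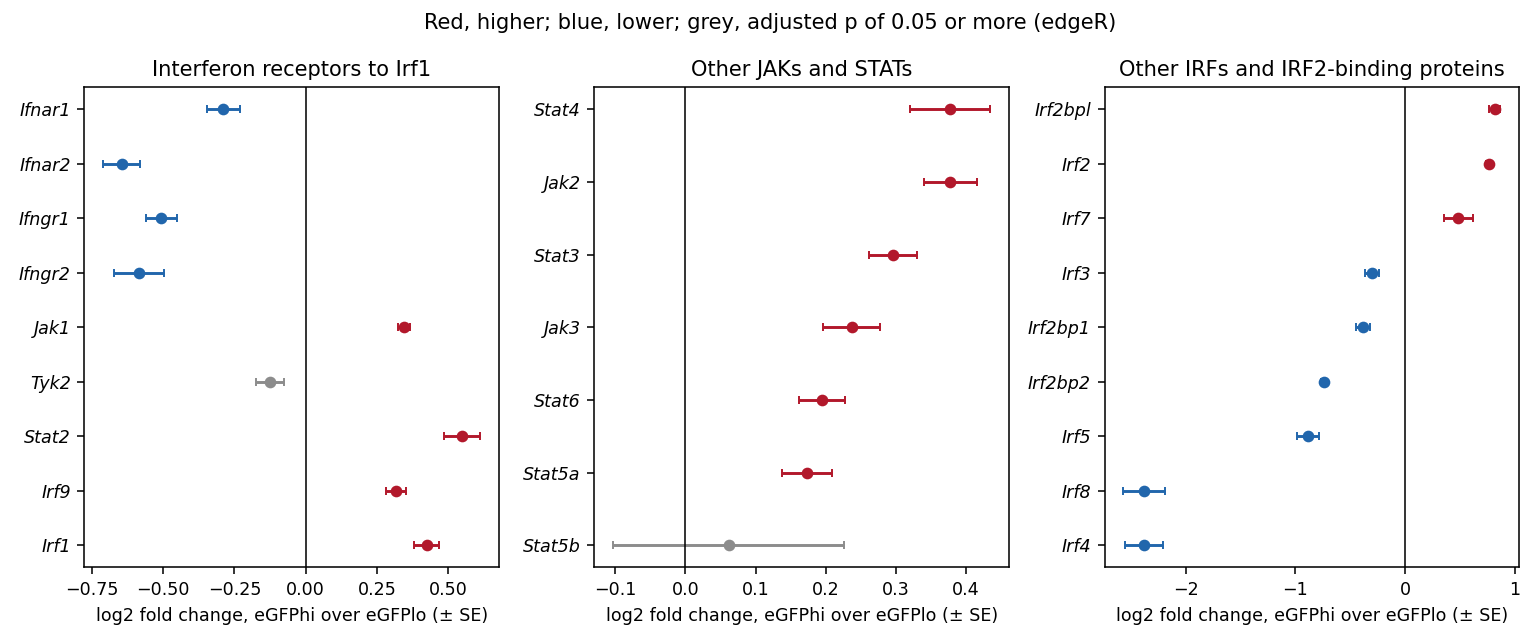
Log2 fold change, eGFPhi over eGFPlo, with SE (edgeR, n = 3 per group) of the 9 genes in pathway order, of 7 other JAK and STAT genes and of 9 other IRF and IRF2-binding protein genes; red is higher, blue lower and grey not past the threshold, and the axes differ in range. Receptor chains lie at -0.65 to -0.29, Jak1, Stat2, Irf9 and Irf1 at 0.32 to 0.55, and the other IRFs from -2.38 to 0.82.

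Of 21 interferon ligand genes listed, Ifng and Ifnz were in the table used here. Ifng, the gene of interferon gamma made by T and NK cells, had no count in eGFPhi and 11, 23 and 22 counts in eGFPlo libraries. It was at least 24.0-fold lower in eGFPhi against 3 counts over the group. The gene passed the filter on low counts only through eGFPlo, which fixed its direction, so no p-value is given. T and NK cell markers were lower in the same libraries, and their part in this fall was not tested. Ifnz had 0 counts in eGFPhi and 1, 2 and 4 in eGFPlo libraries and was not tested.

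Among 15 negative regulators of the pathway, 7 rose and 3 fell (median log2 fold change 0.10), where 32.3% of all tested genes rose, 31.7% fell and 64.0% did either. The list's share of called genes was thus near that of all genes. Of the SOCS family genes on the list, whose products inhibit cytokine receptor signalling, Socs3 rose 1.74-fold to 174 ± 5.64 CPM in eGFPhi, against 100 ± 1.65 CPM in eGFPlo (edgeR adjusted p = 1.23e-06). Cish rose 1.86-fold and Socs1, which blocks Jak1 and Tyk2 directly, 1.88-fold at 8.29 ± 1.66 CPM in eGFPhi and 4.50 ± 0.399 CPM in eGFPlo. The SUMO ligase gene Pias2 rose 1.30-fold. The phosphatase gene Ptpn2, whose product dephosphorylates Jak1, fell to 38.1 ± 1.34 CPM in eGFPhi, against 48.9 ± 3.31 CPM in eGFPlo (log2 fold change -0.36, SE 0.06, edgeR adjusted p = 0.00152). Trex1, a DNA exonuclease that limits DNA sensing, fell at low counts (5, 6 and 8 in eGFPhi libraries, 47, 25 and 32 in eGFPlo libraries). All 1147 of its exon bases lie within exons of Atrip on the same strand, so its counts may not be its own. Usp18, which displaces Jak1 from Ifnar2, stood at 7.26 ± 0.595 CPM in eGFPhi and 7.68 ± 0.739 CPM in eGFPlo (edgeR adjusted p = 0.585). With the assumed coefficient of 0.2, 4 of the 15 passed, where 36.6% of all tested genes did.

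Of 20 target genes of ISGF3, 14 rose and 0 fell (median log2 fold change 0.46), where 32.3% of all tested genes rose, 31.7% fell and 64.0% did either. Rsad2, an antiviral radical SAM enzyme gene, rose 2.28-fold to 26.6 ± 2.21 CPM in eGFPhi, against 11.7 ± 2.82 CPM in eGFPlo (edgeR adjusted p = 5.94e-04), and Ifi44 rose 3.29-fold. The oligoadenylate synthetase gene Oas3 rose 1.39-fold, the RNA sensor gene Ifih1 1.36-fold, Ifit2 1.37-fold and Rtp4 1.71-fold. The 6 genes not past the threshold were Isg15, Mx1, Oas1a, Usp18, Ddx58 and Eif2ak2, with log2 fold changes from -0.42 for Isg15 to 0.29 for Mx1. Of the 15 targets with a RefSeq promoter 11 held the ISRE core in it, against 9.76% of genes in the promoter table. It was also held by 9 of 12 interferon gamma and Irf1 targets and 11 of 20 ligand genes with a promoter. In the other lists it was held by 2 of 7 JAK and STAT genes, 2 of 9 IRF genes, 1 of 11 negative regulators and 0 of 1 type III receptor genes. With the assumed coefficient of 0.2, 7 of the 20 passed, a share near the 36.6% of all tested genes.

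Of 15 tested genes induced by interferon gamma and Irf1, 11 rose and 2 fell (median log2 fold change 0.47), against 32.3% and 31.7% of all tested genes and 64.0% in either direction. The guanylate-binding protein gene Gbp6 rose 9.13-fold to 105 ± 2.95 CPM in eGFPhi, against 11.3 ± 3.75 CPM in eGFPlo (edgeR adjusted p = 5.31e-06), and it shares 1726 exon bases with Gm43302, so that reads could be split between them. Ciita, the transactivator of MHC class II genes, rose 2.85-fold to 9.42 ± 0.919 CPM in eGFPhi, against 3.26 ± 0.606 CPM in eGFPlo (edgeR adjusted p = 1.16e-04). Gbp2 and Nlrc5 rose 1.51-fold and 1.45-fold, and Iigp1 3.66-fold. The chemokine gene Cxcl10 went the other way, at 2.13 ± 0.273 CPM in eGFPhi and 8.998 ± 0.443 CPM in eGFPlo (log2 fold change -2.06, SE 0.13, edgeR adjusted p = 9.70e-06), and the immunoproteasome gene Psmb8 fell (-0.31, SE 0.07). Cxcl9, below the filter, had 11, 11 and 22 counts in eGFPhi libraries and none in eGFPlo, at least 11.4-fold higher in eGFPhi against 3 counts over the group. Ciita shares 329 exon bases with Dexi and Cxcl10 133 with Art3, both on the opposite strand. With the assumed coefficient of 0.2, 7 of the 15 passed, where 36.6% of all tested genes did. Summed LT-HSC and megakaryocyte markers were higher in eGFPhi, and their part in the rises of both target lists was not tested.

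**Figure D5:**
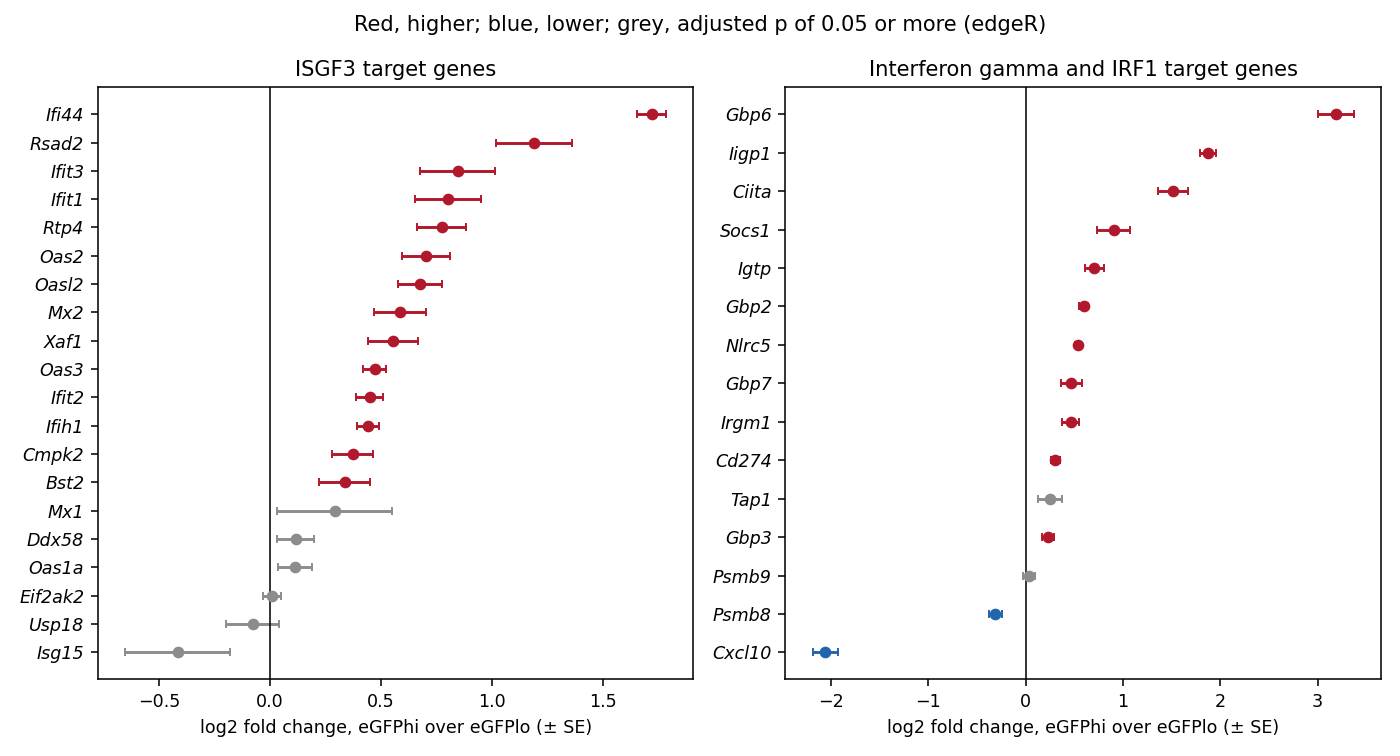
Log2 fold change, eGFPhi over eGFPlo, with SE (edgeR, n = 3 per group) of 20 ISGF3 target genes and of 15 tested interferon gamma and Irf1 target genes; red is higher, blue lower and grey not past the threshold, and the axes differ in range. Most genes lie right of 0, up to Gbp6 at 3.19, and Cxcl10 lies lowest at -2.06.

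For each member the tested gene with the most similar profile was taken, as the smallest root mean square distance of centred log2 CPM over the 6 libraries among 12617 candidates with at least 1 CPM. Nearest to Stat2 was Trim34a, a tripartite motif gene, at a distance of 0.0330 and a log2 fold change of 0.53. Jak1 was nearest to Ptov1 (0.0148), Irf9 to Prpsap2 (0.0177) and Irf1 to Serinc1 (0.0267). For the receptor chains these were Ppp1r8 for Ifnar1 (0.0134), Tpcn1 for Ifnar2 (0.0295), Eef1e1 for Ifngr1 (0.0214) and Dpy30 for Ifngr2 (0.0217), and Tyk2 was nearest to Anapc2 (0.0121). Within the pathway lists and the members, Jak1 and Irf9 were nearest to each other (0.0291), and Ifngr2 had Ifnar2 as its nearest (0.0932). With 6 libraries in 2 groups such distances describe the difference between groups and the noise of each gene.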

How the data were processed

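Poly-A RNA was sequenced as paired-end stranded libraries on an Illumina instrument, per the labels' protocols. The submitters' processing notes name CASAVA 1.8, HISAT2, StringTie and edgeR and the builds hg38 and GRCm38, without roles. How reads were counted, and with which strand setting, is not given in the sources used here. Raw counts for each gene were deposited, per the file headers, together with FPKM computed by the authors. Positions of all 9 genes equalled those in GENCODE M21 (GRCm38), which gave exon lengths and overlaps.

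Counts were fitted with edgeR 4.0.16 (R 4.3.3), with filterByExpr (minimum count 10, minimum total 15), TMM factors, quasi-likelihood tests of group without covariates, and Benjamini-Hochberg adjustment over 18081 genes at a threshold of 0.05. The pipeline was tested on simulated data. TPM used counts over merged exons of all genes. Depth of 11221070 to 26058391 counts puts 3 counts at 0.115 to 0.267 CPM in a library; bounds cover counting error only. No 2 libraries of a group agreed within sampling noise (chi-square per degree of freedom 3.86 to 5.92).

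The members, gene lists and tests were chosen with earlier results of these data known. Results on 2 genes of the wider pathway are not reported here, and the lists leave them out. By the naming rule the text names all 9 members, Trim47, up to 6 genes past the threshold with the smallest p from each list, the genes those sentences rest on, and the nearest profile of each member (no Gm or Rik names). Genes beyond the rule (other list members, overlapping genes and neighbours on chromosome 16) were chosen after their values were seen. The groups use the same replicate numbers, which no label ties to an animal, litter or day, so they were compared unpaired. Other settings tried were leaving out each library, RLE or upper-quartile scaling, no filter, at least 5 CPM in 3 libraries, DESeq2 1.42.0, limma-voom (limma 3.58.1), a replicate block, an assumed coefficient of variation of 0.2, limma fitted to log2(FPKM + 1), and a threshold of 0.1.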

Additional observations from a re-analysis of the deposited data

How the results depend on the processing

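All 9 genes kept their direction under every alternative run, and the 8 calls held with RLE and upper-quartile factors, without a filter, with at least 5 CPM in 3 libraries, with DESeq2, with limma-voom, with limma on log2 of FPKM plus 1 and without any 1 library. Log2 fold changes ranged over the count alternatives from -0.71 to -0.59 for Ifnar2, -0.32 to -0.23 for Ifnar1, -0.55 to -0.47 for Ifngr1, -0.64 to -0.51 for Ifngr2, 0.33 to 0.37 for Jak1, 0.51 to 0.59 for Stat2, 0.30 to 0.34 for Irf9 and 0.39 to 0.45 for Irf1. Tyk2 ranged from -0.16 to -0.10 and passed at a threshold of 0.1 and without eGFPhi replicate 2 (adjusted p = 0.0301). The assumed coefficient of variation of 0.2 ended 7 calls: 6619 genes in place of 11571 passed, 24 genes of the other pathway lists in place of 52, and 1 member, of which 0 were higher and 1 lower (1 higher and 3 lower at an unadjusted p under 0.05 in that likelihood ratio test, and 4 higher and 4 lower with DESeq2). Adjusted p there was 0.0501 for Ifngr2, 0.0620 for Stat2, 0.0841 for Ifngr1, 0.159 for Irf1, 0.265 for Jak1, 0.323 for Irf9 and 0.370 for Ifnar1; a larger assumed spread is what that alternative sets. With the replicate block 10965 genes and 8 members passed, and it changed no call of a member. Residual profiles of same-numbered libraries did not correlate across genes (r = -0.0133, 0.000555 and -0.0108). Differently numbered libraries had r of -0.0133 to 0.0239. With 3 libraries per group, such values cannot tell whether same-numbered libraries share an animal or a sort. Leaving out 1 library gave 10618 to 11427 genes past the threshold, 8 or 9 members and 51 to 55 genes of the other lists, and without eGFPlo replicate 3 Il10rb passed and Stat5b turned to -0.14. With the deposited FPKM in place of TPM, Stat2 stood above Ifnar1 in eGFPhi and above Ifngr2 in eGFPlo, so those orders depend on the gene length used.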
